A study of Homo sapiens with 6 samples.

Results

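A set of 10 genes of the YAP/TEAD pathway was followed in 5637 cells, an established human bladder cancer line: YAP1, WWTR1, TEAD1, CCN1, CCN2, ANKRD1, AMOTL2, AJUBA, LATS2 and AXL. They are the rows of the deposited count table whose Ensembl identifier maps to one of these symbols, which gave 10 genes of 61860, and all 10 passed the default filter on low counts that left 17372 genes tested. Of the 6 libraries, 3 were labelled siYTHDC1 and 3 siNC, the control. All 6 came from 5637 cells grown in the same medium with serum and carried the same treatment label, which speaks of both transfection and infection, while the descriptions speak of a plasmid, so the reagent is unclear. No label gives a time after treatment or says that the replicates were separate cultures. The p-values therefore set a group difference only against the variation between these libraries, and that variation may be technical.

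YAP1 and WWTR1 (which encodes TAZ) are paralogous transcriptional coactivators that have no DNA-binding domain of their own. They act in the nucleus mainly through TEAD factors, and the Hippo kinases hold them back: STK3 and STK4 with SAV1 activate LATS1 and LATS2 with MOB1 cofactors, and the LATS kinases phosphorylate YAP and TAZ so that they stay in the cytoplasm. Cell spreading, tension and low density favour YAP and TAZ activity, and CCN1, CCN2 and ANKRD1 are the target genes most often read as its output. YAP and TAZ are controlled largely at the protein level, which RNA counts do not measure.

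The promoters of 3 of these genes are shown because their transcripts were higher in the siYTHDC1 libraries and the short sequence recognised by TEAD factors lies in them. Capitals mark GGAATG, the core of the TEAD element (read on both strands, CATTCC on the other). Sequences are from RefSeq (GRCh38.p14), 5′ to 3′ on the gene's strand, and end at the gene start of RefSeq or GENCODE release 29, whichever lies further upstream.
CCN2, chr6:131951374-131951622, minus strand: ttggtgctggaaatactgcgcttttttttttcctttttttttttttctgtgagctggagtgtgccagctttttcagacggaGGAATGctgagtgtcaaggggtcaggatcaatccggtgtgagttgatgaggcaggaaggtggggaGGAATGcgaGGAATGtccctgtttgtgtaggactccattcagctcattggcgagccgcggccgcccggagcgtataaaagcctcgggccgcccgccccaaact
ANKRD1, chr10:90921277-90921337, minus strand: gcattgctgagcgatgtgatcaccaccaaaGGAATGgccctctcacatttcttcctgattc
YAP1, chr11:102110197-102110446, plus strand: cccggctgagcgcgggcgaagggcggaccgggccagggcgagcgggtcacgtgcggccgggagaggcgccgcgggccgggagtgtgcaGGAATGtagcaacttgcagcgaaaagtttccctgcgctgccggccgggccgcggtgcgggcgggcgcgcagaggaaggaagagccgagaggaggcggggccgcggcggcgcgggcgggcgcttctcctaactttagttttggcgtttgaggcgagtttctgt
In CCN2 the core stood 3 times, beginning 169, 104 and 95 bases before the RefSeq start. ANKRD1 held 2 copies, at 220 and 128 bases before its RefSeq start, of which the nearer lies downstream of the GENCODE start and is not printed, and YAP1 held 1, at 162 bases. Over 35116 promoter windows of 250 bases, 11.9% had at least 1 core, 0.940% at least 2 and 0.0826% at least 3. The 3 printed promoters were picked for holding a core, so their copies beside these shares are no test. Promoters were matched for 8 of the 10 genes, CCN1 and TEAD1 being without an entry. These 8 genes had 12 windows, of which 6 held the core. The core was also present at an alternative start of AMOTL2, AJUBA and AXL, whose transcripts were not called. It was absent from the windows of WWTR1 and LATS2, whose transcripts rose. The AP-1 element TGANTCA, read on both strands and able to share its first bases with the end of the TEAD core, was found in 6.57% of the windows and, among the 8 genes, only in that of ANKRD1; the CArG box was found in 1.16% of the windows and in none of theirs. A match is a description of the letters and not a measured binding site.

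Total counts were between 33223480 and 35607577 per library. Counts of YTHDC1, the gene targeted, overlapped between the groups: siNC replicates 1 to 3 held 50, 786 and 55 counts, and siYTHDC1 replicates 1 to 3 held 161, 18 and 14. Directions below therefore compare libraries by their label, siYTHDC1 against siNC. For YTHDC1 itself the log2 difference was -2.20 ± 0.69 (SE; edgeR adjusted p = 0.00864), and without siNC replicate 2 it was 0.31 (edgeR adjusted p = 0.691). Epithelial identity was present, since KRT8, KRT18, KRT19, CDH1, EPCAM and the basal urothelial keratins KRT5 and KRT17 were all abundant, whereas the umbrella-cell marker KRT20 was at 0 and UPK1B and UPK3A were at 0 to 5 counts in each library, and UPK2 had 7 to 28. Among markers of other cells, DCN and CD3E were at 0 throughout and COL1A2, COL3A1 and PTPRC had at most 2 counts per library. CD68 was listed at 0 too, but other genes on the same strand share 81.7% of its exonic bases, so reads from it may not have been assigned to it. The summed level of 6 fibroblast markers was 78.9 to 84.9 CPM (counts per 1000000 after TMM scaling) in siNC and 92.3 to 97.1 CPM in siYTHDC1 libraries, nearly all of it COL1A1. The summed level of 4 endothelial markers was 5.52 to 7.79 CPM in siNC and 6.00 to 7.51 CPM in siYTHDC1 libraries, and that of 5 immune markers, nearly all CD14, was 6.59 to 8.03 and 4.71 to 6.50 CPM. The epithelial markers moved much more, from 7229 to 7441 CPM in siNC to 4401 to 4506 CPM in siYTHDC1 libraries summed over 5 genes (3 fell and 1 rose), and the 11 urothelial markers from 4532 to 4584 CPM to 2377 to 2428 CPM (5 of 8 tested fell and 2 rose). The part of these shifts in the results below was not tested.

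Of the 10 genes, 6 rose in the siYTHDC1 libraries and 0 fell, where 26.3% of all tested genes rose, 27.1% fell and 53.4% were called in either direction (edgeR, adjusted p under 0.05). The 10 genes and the further lists below were chosen with earlier results of these data known. Their counts beside these shares are therefore descriptions and not tests. The rises covered both coactivators, the 3 secreted or nuclear output genes CCN1, CCN2 and ANKRD1, and the kinase gene LATS2. The sizes differed widely, from 1.17-fold for YAP1 to 2.87-fold for ANKRD1. TEAD1, AMOTL2, AJUBA and AXL were not called, each with a log2 difference of at most 0.06 in size. The median log2 fold change of the 10 was 0.24, beside -0.00041 over all tested genes, and their median size (0.24) was below that of all tested genes (0.30). In these bulk libraries, a change in how many cells hold a transcript and a change in its amount per cell cannot be told apart.

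**Figure D1:**
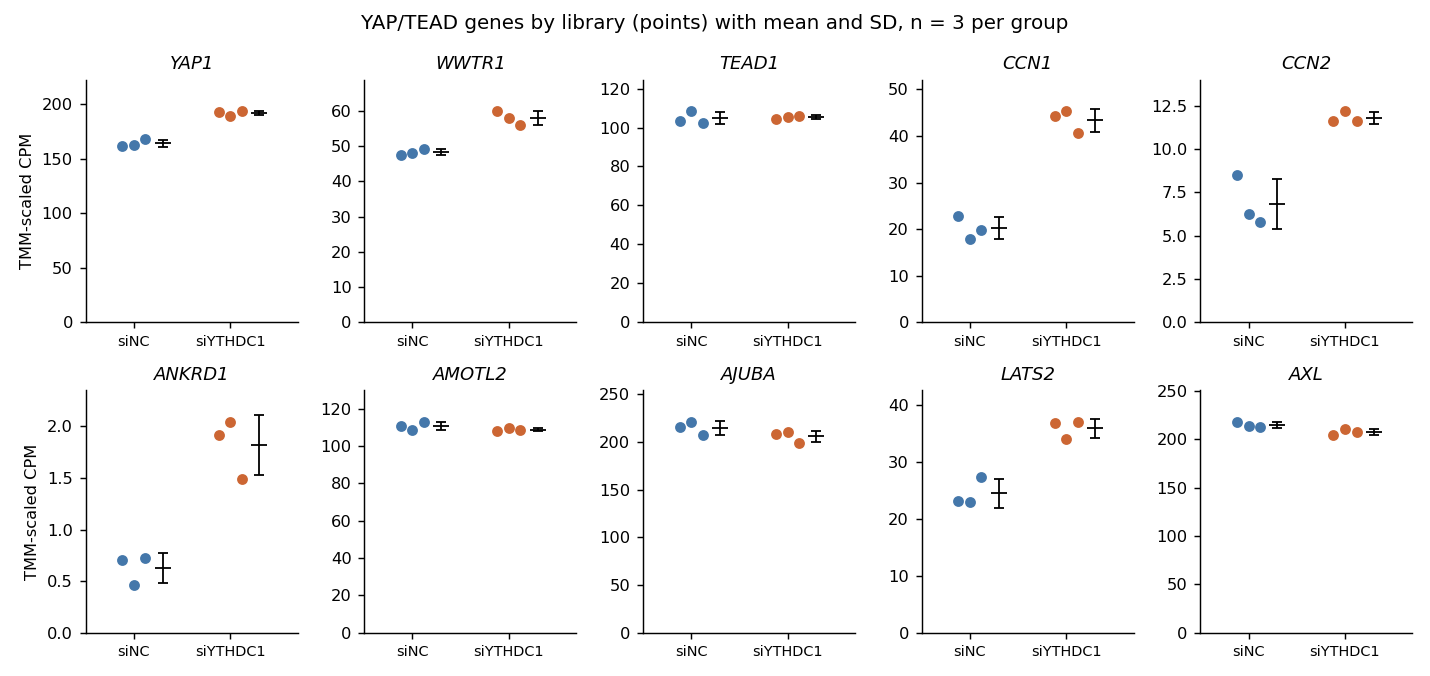
TMM-scaled counts per 1000000 (CPM, y axis from 0) of the 10 genes in the 3 siNC (blue) and 3 siYTHDC1 (orange) libraries, with mean and SD in black. For YAP1, WWTR1, CCN1, CCN2, ANKRD1 and LATS2 every siYTHDC1 point lies above every siNC point. For AXL every siYTHDC1 point lies just below every siNC point, and TEAD1, AMOTL2 and AJUBA overlap. The share of all tested genes without overlap is not given here.

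The coactivator YAP1 (ENSG00000137693, chromosome 11:102110461-102233423 on hg38, up to 9 exons per transcript) was measured at 162, 162 and 168 CPM in siNC and at 193, 189 and 194 CPM in siYTHDC1 samples, each in the order of replicates 1 to 3, as for every gene that follows. The lowest siYTHDC1 library stood above the highest siNC library, and the gap was larger than the spread in either group. The mean went from 164 ± 3.35 to 192 ± 2.22 CPM (SD, n = 3 each), which is 0.23 ± 0.03 on the log2 scale (SE; edgeR adjusted p = 1.58e-06).

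WWTR1 (ENSG00000018408, 3:149517235-149736714, up to 8 exons), the gene of TAZ, had 47.6, 48.2 and 49.3 CPM in siNC and 59.9, 57.9 and 56.1 CPM in siYTHDC1 libraries. These groups did not overlap either, and the log2 difference came to 0.26 ± 0.05 (SE; edgeR adjusted p = 8.91e-05). Per length, YAP1 was the more abundant of the pair, at 96.7 ± 2.51 transcripts per 1000000 (TPM) against 21.3 ± 0.482 TPM for WWTR1 in siNC libraries (SD, n = 3). Their ratio within a library moved little: the log2 ratio of WWTR1 to YAP1 counts was -1.76 ± 0.01 in siNC and -1.73 ± 0.05 in siYTHDC1 libraries (SD, n = 3 each), a difference of 0.03 that did not exceed the spread (exact 2-sided permutation p = 0.4, and 0.4 adjusted over 5 pairs). Exons of other genes on the opposite strand cover 9.97% of the exonic bases of YAP1 and 9.45% of those of WWTR1; the library kit was a directional one, but the sources used here do not say whether reads were counted by strand.

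TEAD1 (ENSG00000187079, 11:12674591-12944483, up to 13 exons), one of the DNA-binding partners of YAP and TAZ, had 103, 108 and 103 CPM in siNC and 104, 106 and 106 CPM in siYTHDC1 libraries. All siYTHDC1 values lay inside the siNC range. Its log2 difference was 0.01 ± 0.04 (SE; edgeR adjusted p = 0.891), and the sign changed with the library left out.

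The other TEAD genes were all called. TEAD4 rose from 32.3 ± 2.86 to 54.9 ± 1.73 CPM (SD, n = 3 each), or by 0.76 ± 0.06 on the log2 scale (SE; edgeR adjusted p = 3.96e-11). TEAD2 fell from 100.5 ± 2.98 to 64.2 ± 1.46 CPM (SD, n = 3 each), by 0.65 on the log2 scale (edgeR adjusted p = 8.07e-13), and TEAD3 fell by the smaller 0.19 (edgeR adjusted p = 0.00367). Of the exonic bases of TEAD2, 10.7% lie under exons of CD37 on the other strand.

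Per length, the order of the TEAD genes in the siNC libraries was TEAD2 (125 ± 3.83 TPM), TEAD3 (60.2 ± 0.518), TEAD4 (52.8 ± 4.57) and TEAD1 (37.8 ± 1.07; SD, n = 3 each), and the ranges of no neighbouring pair overlapped. In the siYTHDC1 libraries TEAD4 came first with 92.7 ± 2.43 TPM, followed by TEAD2 with 82.6 ± 2.23, TEAD3 with 54.5 ± 1.37 and TEAD1 with 39.3 ± 0.559 TPM (SD, n = 3 each), again without overlap. Both orders rest on the division by length: by CPM, TEAD1 was highest in both groups, and TEAD4 stood below TEAD2 in the siYTHDC1 libraries. The summed level of the 4 genes was 276 ± 9.16 TPM in siNC and 269 ± 3.33 TPM in siYTHDC1 libraries (SD, n = 3 each), with overlapping ranges of 269 to 286 and 265 to 272 TPM. That overlap also rests on the division by length: by summed CPM, the siYTHDC1 libraries all lay below the siNC libraries. Across siNC replicates TEAD4 supplied 18.7%, 20.3% and 18.4% of the TPM sum, and across siYTHDC1 replicates 35.1%, 34.9% and 33.4%, with no overlap. TEAD2 made up 45.4% ± 0.575 and 30.7% ± 0.628 (SD, n = 3 each). The TEAD4 share differed by 15.3 percentage points, and by 9.27 where counts were not divided by length. These shares were computed after the values were seen; each of the 4 had an exact 2-sided permutation p of 0.1, the smallest that 3 against 3 libraries allow (0.1 adjusted over the 4). Within a library, the log2 ratio of TEAD4 to TEAD1 counts went from -1.70 ± 0.08 to -0.94 ± 0.06 (SD, n = 3 each), which also reached that smallest p of 0.1 (0.125 adjusted over 5 pairs in an exact permutation test).

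**Figure D2:**
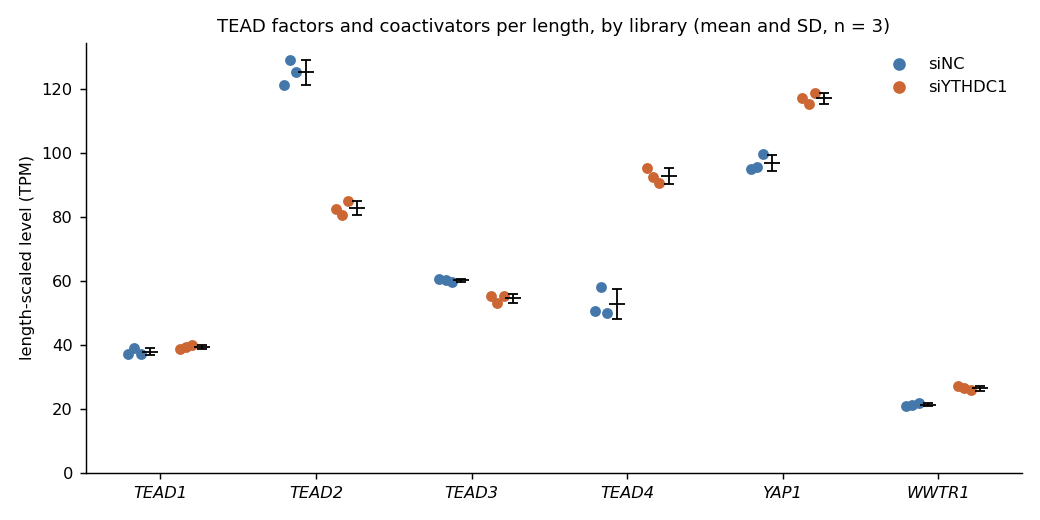
Length-scaled level (TPM, y axis from 0) of the 4 TEAD genes, YAP1 and WWTR1 in each siNC (blue) and siYTHDC1 (orange) library, with mean and SD in black. TEAD2 is the highest TEAD gene in siNC libraries and TEAD4 in siYTHDC1 libraries, while TEAD1 stays near 38 to 39 TPM.

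Among the cofactors of the vestigial-like family, which bind TEADs in place of YAP and TAZ, VGLL3 rose from 28.7 ± 1.49 to 48.6 ± 2.30 CPM and VGLL2 fell from 13.1 ± 0.980 to 9.34 ± 1.22 CPM (SD, n = 3 each; edgeR adjusted p = 4.35e-11 and 3.87e-04). VGLL4, which competes with YAP for TEADs and is named here after its values were seen, rose by 0.20 ± 0.03 (SE), with 23.7% of its exonic bases under opposite-strand exons. With TEAD2, TEAD3 and TEAD4 included, 3 of 7 genes of this list rose and 3 fell, beside 26.3% and 27.1% of all tested genes. The remaining gene, VGLL1, was not called and had 10 to 22 counts per library.

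Within the set of 10, ANKRD1, CCN1 and CCN2 had the largest fold changes. CCN1 (ENSG00000142871, 1:85580761-85583962, up to 5 exons), a secreted matricellular protein formerly named CYR61, had 807, 619 and 688 counts in siNC and 1547, 1509 and 1388 counts in siYTHDC1 libraries. Every siYTHDC1 library held well over the count of any siNC library. The level went from 20.2 ± 2.43 to 43.4 ± 2.49 CPM (SD, n = 3 each), 2.15-fold (log2 1.10 ± 0.08, SE; edgeR adjusted p = 1.91e-12). Of all tested genes, 4.72% had a log2 fold change at least as high.

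CCN2 (ENSG00000118523, 6:131948176-131951373, up to 5 exons), its paralog formerly named CTGF, whose promoter with 3 TEAD cores is printed above, had 301, 215 and 201 counts in siNC and 406, 406 and 397 counts in siYTHDC1 libraries. The groups were apart, although siNC replicate 1 stood above the other siNC libraries. Its log2 difference came to 0.78 ± 0.13 (SE; edgeR adjusted p = 6.42e-06), or 1.72-fold, and it was 0.97 without siNC replicate 1. Exons of another gene on the opposite strand cover 8.34% of its exonic bases. The log2 ratio of CCN2 to CCN1 counts within a library went from -1.57 ± 0.18 to -1.88 ± 0.06 (SD, n = 3 each), at the smallest p an exact 2-sided permutation test allows here (0.1; 0.125 adjusted over 5 pairs).

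ANKRD1 (ENSG00000148677, 10:90912096-90921276, up to 9 exons), an ankyrin-repeat protein of muscle sarcomeres and nuclei, was scarce, with 25, 16 and 25 counts in siNC and 67, 68 and 51 counts in siYTHDC1 libraries. It had the largest fold change of the 10 genes and the widest error, 1.52 ± 0.34 (SE; edgeR adjusted p = 4.09e-04) on the log2 scale. Leaving out 1 library gave log2 values from 1.34 to 1.64. Per length its level went from 1.18 ± 0.273 to 3.52 ± 0.545 TPM (SD, n = 3 each), and in both groups it had the lowest mean TPM of the 10 genes.

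Of the other CCN genes, CCN3 rose from 4.29 ± 0.474 to 10.3 ± 0.897 CPM (SD, n = 3 each; edgeR adjusted p = 6.22e-09). CCN4, named after its values were seen, had 22, 28 and 31 counts in siNC libraries and 0 in each siYTHDC1 library, which is at least 26.5-fold lower against a floor of 3 counts over the group. CCN6 had 21 to 69 counts per library and was not called (log2 0.67 ± 0.34, SE; edgeR adjusted p = 0.10), and CCN5 was too scarce to test.

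LATS2 (ENSG00000150457, 13:20973032-21061547, up to 8 exons) encodes a kinase that inactivates YAP and TAZ and is itself a YAP target. It had 23.2, 23.0 and 27.4 CPM in siNC and 36.8, 34.0 and 37.1 CPM in siYTHDC1 libraries. The groups did not overlap, and the log2 difference came to 0.55 ± 0.07 (SE; edgeR adjusted p = 4.16e-07). Its paralog LATS1 went from 33.8 ± 1.14 to 34.0 ± 1.32 CPM (SD, n = 3 each; edgeR adjusted p = 0.920). The log2 ratio of LATS2 to LATS1 counts was -0.51, -0.53 and -0.35 in siNC and 0.15, 0.03 and 0.06 in siYTHDC1 libraries. Its exact 2-sided permutation p was 0.1, the smallest possible (0.125 adjusted over 5 pairs). LATS2 counts passed those of LATS1 in all 3 siYTHDC1 libraries and in 0 siNC libraries, but only without division by length. Per length, LATS2 already stood above LATS1 in every siNC library (15.3, 15.3 and 18.4 against 14.1, 14.2 and 15.1 TPM).

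AMOTL2 (ENSG00000114019, 3:134355874-134375479, up to 10 exons), an angiomotin-family protein that tethers YAP and is widely used as a YAP target, had 111, 109 and 113 CPM in siNC and 108, 110 and 109 CPM in siYTHDC1 libraries. Exonic sequence of RPL39P5 on the same strand covers 3.13% of its exonic bases. The values overlapped (log2 fold change -0.03 ± 0.04, SE; edgeR adjusted p = 0.607). Its relative AMOTL1 rose from 300 ± 3.59 to 415 ± 8.24 CPM (SD, n = 3 each; log2 0.47 ± 0.03, SE; edgeR adjusted p = 8.01e-14). The within-library log2 ratio of AMOTL2 to AMOTL1 counts went from -1.44 ± 0.02 to -1.93 ± 0.04 (SD, n = 3 each; exact 2-sided permutation p = 0.1, the smallest possible; 0.125 adjusted over 5 pairs).

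**Figure D3:**
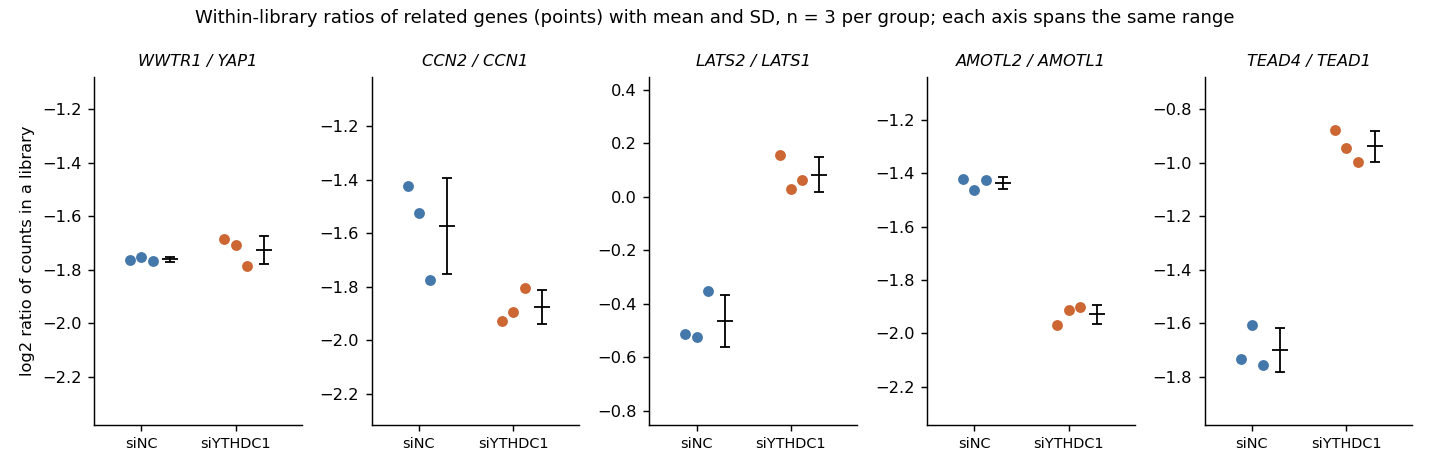
Log2 ratio of the counts of 2 related genes within each library (y axis), for 5 pairs in siNC (blue) and siYTHDC1 (orange) libraries, with mean and SD in black. The groups are apart for CCN2/CCN1, LATS2/LATS1, AMOTL2/AMOTL1 and TEAD4/TEAD1 and overlap for WWTR1/YAP1.

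AJUBA (ENSG00000129474, 14:22971174-22982642, up to 9 exons), a LIM-domain protein that binds LATS kinases at junctions, had 215, 221 and 207 CPM in siNC and 208, 210 and 199 CPM in siYTHDC1 libraries. The groups overlapped and the gene was not called (log2 fold change -0.06 ± 0.03, SE; edgeR adjusted p = 0.162). AXL (ENSG00000167601, 19:41219203-41261766, up to 20 exons), a receptor tyrosine kinase and reported YAP target, had 218, 213 and 213 CPM in siNC and 204, 210 and 207 CPM in siYTHDC1 libraries. Its siYTHDC1 values lay just under the siNC values, a gap that did not pass the test (log2 fold change -0.05 ± 0.03, SE; edgeR adjusted p = 0.172). Per length the AXL groups overlapped, with 156, 153 and 154 TPM in siNC and 151, 156 and 155 TPM in siYTHDC1 libraries. Of the relatives and ligands of AXL, the receptor gene MERTK fell by 0.68 on the log2 scale (edgeR adjusted p = 2.09e-06), the receptor gene TYRO3 rose by 0.16 ± 0.04 and the ligand gene GAS6 by 0.15 ± 0.04 (SE; edgeR adjusted p = 0.00119 and 0.00470). The ligand gene PROS1 was not called, with a log2 value of -0.03 ± 0.09 (SE).

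Beyond the 10 genes, a published signature of YAP and TAZ targets contributed 16 further genes, of which 15 were tested. Of these, 9 rose, 3 fell and 3 were not called, where 26.3% of all tested genes rose and 27.1% fell. The median log2 fold change of the 15 was 0.25. The largest rise was in NT5E, which encodes the ectonucleotidase CD73: it had 67.4, 65.4 and 68.2 CPM in siNC and 276, 275 and 288 CPM in siYTHDC1 libraries. All siYTHDC1 values were far above all siNC values, 4.17-fold on average (log2 2.06 ± 0.04, SE; edgeR adjusted p = 2.38e-25), and 0.748% of tested genes had a log2 fold change at least as high. IGFBP3, a secreted binder of insulin-like growth factors, rose from 346 ± 3.69 to 636 ± 30.4 CPM (SD, n = 3 each). F3, the clotting initiator tissue factor, rose by 0.72 ± 0.04 and the secreted matrix gene CCDC80 by 0.72 ± 0.06 on the log2 scale (SE). TGFB2, GADD45A, CRIM1, ASAP1 and MYOF also rose, between 0.14 on the log2 scale for MYOF and 0.68 for TGFB2, of whose exonic bases 26.6% are shared on the same strand with TGFB2-OT1. The 3 falls were ARHGEF17 (log2 -0.56 ± 0.05, SE), the transcription factor gene FOXF2 (-0.50 ± 0.05) and PTPN14 (-0.15 ± 0.05), a phosphatase that binds YAP. The PTPN14 call was lost without siYTHDC1 replicate 3 (edgeR adjusted p = 0.0522, the highest of a range from 0.00407). These rises and falls other than NT5E, IGFBP3, F3 and CCDC80 are named after their values were seen.

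**Figure D4:**
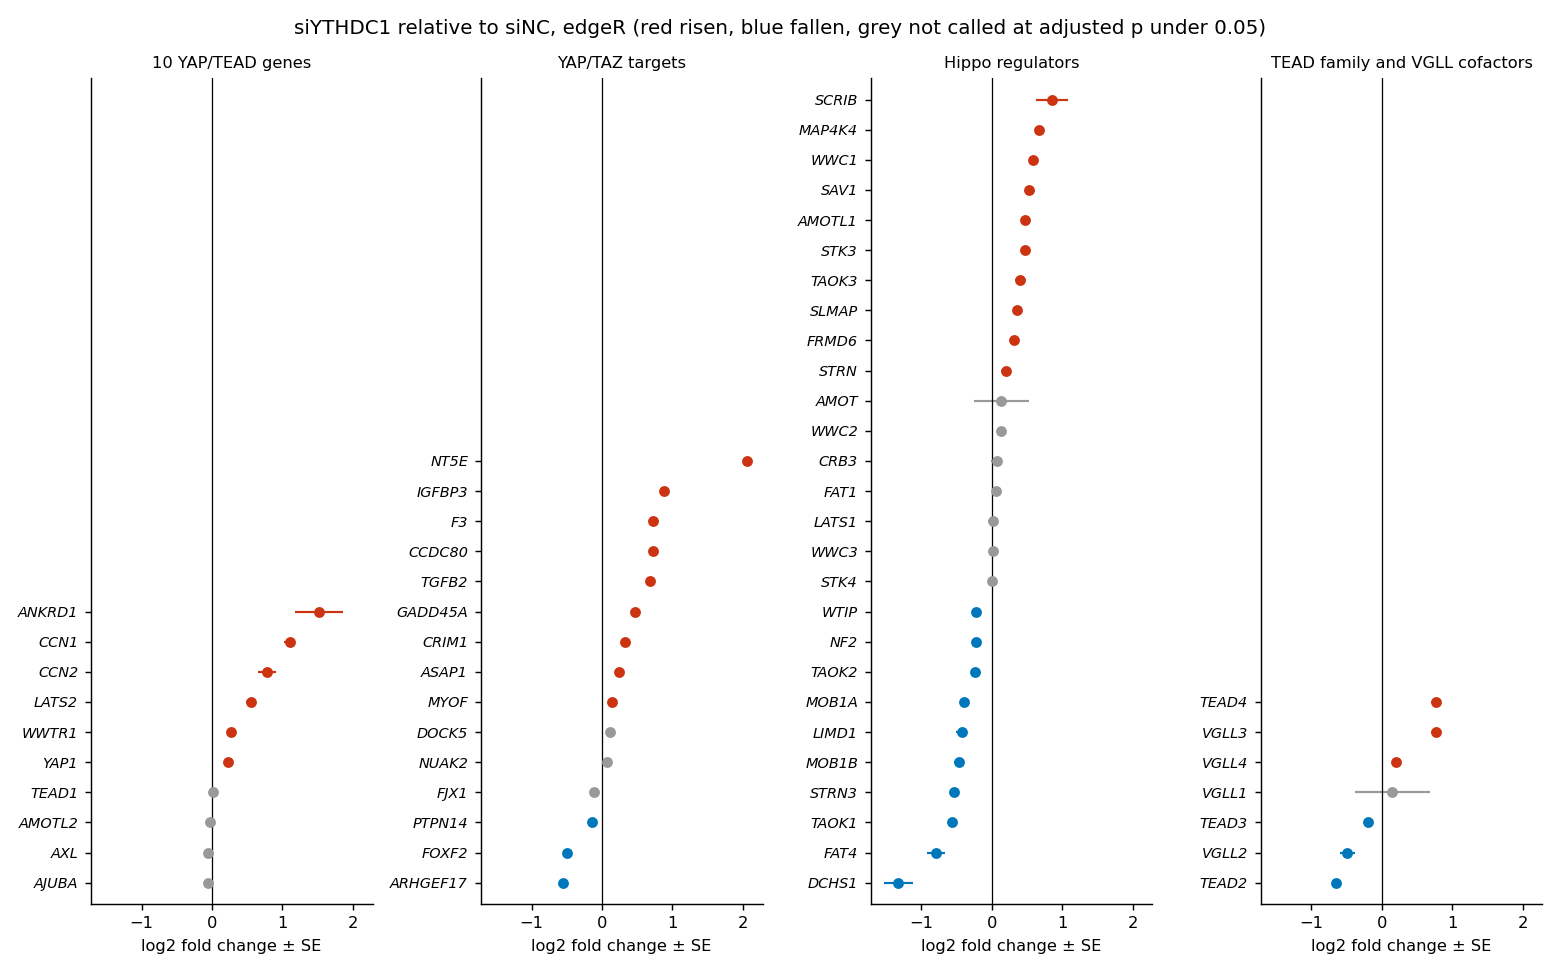
Log2 fold change of siYTHDC1 relative to siNC libraries (x axis, with SE) for the 10 genes, the further YAP/TAZ targets, the Hippo regulators and the TEAD and VGLL genes that were tested. Red points rose, blue points fell and grey points were not called. Of 15 further targets 9 rose, whereas the 27 Hippo regulators split into 10 rises, 10 falls and 7 uncalled genes. Over all tested genes, 26.3% rose and 27.1% fell.

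Hippo regulators other than LATS2, AMOTL2 and AJUBA showed no common direction, with 10 of 27 tested genes rising, 10 falling and a median log2 fold change of 0.05. Over all tested genes, 26.3% rose and 27.1% fell. MAP4K4, a kinase that acts in parallel with the Hippo kinases to activate LATS, rose from 151 ± 2.37 to 240 ± 3.40 CPM (SD, n = 3 each; edgeR adjusted p = 7.50e-16). The protocadherin genes DCHS1 and FAT4, a ligand and its receptor in the upstream branch of the pathway, fell by 1.33 and 0.80 on the log2 scale (edgeR adjusted p = 3.79e-06 and 5.45e-06); opposite-strand exons cover 9.36% of the exonic bases of DCHS1. SCRIB, a polarity scaffold, was called but its groups overlapped, with 363, 266 and 278 counts in siNC and 239, 533 and 828 counts in siYTHDC1 libraries. Without siYTHDC1 replicate 3 its log2 fold change went from 0.85 to 0.39 (edgeR adjusted p = 0.0894), and with DESeq2 it was 0.86 (DESeq2 adjusted p = 0.157).

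Within the core kinase cassette, named after its values were seen, the kinase gene STK3 (log2 0.46 ± 0.06, SE) and its scaffold SAV1 (0.53 ± 0.04; opposite-strand exons over 14.9% of its exonic bases) rose, while the LATS cofactor genes MOB1A (-0.40 ± 0.04) and MOB1B (-0.47 ± 0.07) fell. STK4 and LATS1 were not called, with log2 values of -0.0013 ± 0.04 and 0.01 ± 0.06 (SE). Upstream kinases of the TAO family differed in direction, TAOK1 (-0.56 ± 0.04) and TAOK2 (-0.24 ± 0.04) having fallen and TAOK3 (0.40 ± 0.08) having risen. NF2, the tumour suppressor merlin that recruits LATS to membranes, fell by 0.23 on the log2 scale, and WWC1, the adaptor KIBRA, rose by 0.58 ± 0.05 (SE). The TAO kinase genes, NF2 and WWC1 were likewise chosen after their values were seen.

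Genes of the actin-responsive SRF and MRTF programme were counted as well, because CCN1, CCN2 and ANKRD1 also respond to it. Of 13 tested genes 3 rose and 7 fell, beside 26.3% risen and 27.1% fallen over all tested genes. The median log2 fold change of the 13 was -0.19. ACTA2, smooth muscle actin, rose from 1.85 ± 0.411 to 4.48 ± 0.347 CPM and FHL2, a LIM-domain cofactor, from 77.6 ± 2.53 to 115 ± 5.69 CPM (SD, n = 3 each). ACTG1, cytoplasmic gamma actin, fell from 5646 ± 26.8 to 3433 ± 86.7 CPM and the actin cross-linker gene FLNA from 1925 ± 20.6 to 1451 ± 23.0 CPM (SD, n = 3 each; edgeR adjusted p at most 1.22e-05 for these 4 genes). VCL, the third rise, was chosen after its values were seen and gained 0.20 ± 0.03 (SE). TPM1 (log2 -0.40 ± 0.03, SE), MRTFA (-0.37 ± 0.06) and ACTB (-0.30 ± 0.02) also fell. So did MRTFB (-0.23 ± 0.06) and ZYX (-0.19 ± 0.03), and these further falls are likewise named after their values were seen. Opposite-strand exons cover 30.1% of the exonic bases of ACTA2, 21.4% of those of TPM1 and 11.1% of those of VCL.

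The genes whose log2 CPM followed YAP1 most closely over the 6 libraries were SEMA3A, a secreted guidance factor (Pearson's r = 0.9996), the signalling adaptor GAB2 (0.999) and WDR72 (0.999). For CCN1 they were TMEM59 (0.9997), ST7L (0.999) and the retromer subunit gene VPS29 (0.998). These correlations are descriptions and rest mainly on the difference between the groups: among 11132 genes compared, 206 had an r of at least 0.99 with YAP1 and 112 with CCN1.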

How the data were processed

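What the authors deposited is 1 table of raw counts, whole numbers for each Ensembl gene and library; the submitters' processing notes name hg38, and the sources used here name no aligner, counter, annotation or strand setting. Columns were matched to samples by name (0 left unused; the S1 in the siYTHDC1 names is unexplained). Of the identifiers, 61757 were named from a symbol table and 101 from GENCODE release 29, which also gave positions and exon lengths, and 2 had no name. The edgeR 4.0.16 quasi-likelihood test (R 4.3.3, TMM scaling, default filter, group as the only term) was run on all 6 libraries, with Benjamini-Hochberg adjustment over 17372 genes and a threshold of 0.05; it was tried on simulated data. CPM are TMM-scaled, and TPM use union exon length. Ratios within a library used a prior count of 0.5 and exact 2-sided permutation tests. The members and lists were chosen with earlier results of these data known. Named genes were the 10, YTHDC1, the paired genes, the TEAD genes, up to 4 called genes per list with the largest changes at a mean of at least 1 CPM, and the 3 closest in pattern to YAP1 and to CCN1. Other genes are marked as named after their values were seen, except list members named because they were uncalled or not tested (PROS1, CCN5, CCN6, VGLL1, STK4 and those in the account of alternatives) and cell markers; these too were named after their values were seen. Alternatives were other scalings and filters, DESeq2 1.42.0, limma-voom (limma 3.58.1), the replicate number as a block, and leaving out each library. With counts taken as independent reads, replicates differed by more than sampling noise (chi-square per degree of freedom 3.76 to 5.85, summed over genes). How far the excess of even low counts described below, or single genes with large differences, raised this value was not tested. The totals of 33223480 to 35607577 counts limit precision mainly for scarce genes such as ANKRD1.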

Additional observations from a re-analysis of the deposited data

How the results depend on the processing

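The 6 rises and 0 falls among the 10 genes held under all 14 alternatives, which were RLE, upper-quartile and no scaling, DESeq2, limma-voom, 2 other filters, the replicate block and 6 fits without 1 library; all 10 kept their side of the threshold in each. The number of genes called, 9278, ran from 8533 to 9308, and the scalings moved the median log2 fold change of all genes by at most 0.01. TEAD1, never called, changed sign in fits without 1 library (-0.01173 to 0.03021). YTHDC1 ran from -4.17 to 0.31 in such fits, and with limma-voom it was -1.83 (limma adjusted p = 0.0861); the cause was not tested. Of uncalled genes, STK4 turned positive with RLE (7.76e-04), upper-quartile (0.00896) and no scaling (0.00913), DESeq2 (7.81e-04) and the 1 CPM filter (0.00341). Without 1 library STK4 ran from -0.03398 to 0.02225. Other uncalled genes were positive in the main fit and turned negative only in some fits without 1 library. These were LATS1 (-0.02665 to 0.03269), WWC3 (-0.04457 to 0.04863), AMOT (-0.15181 to 0.37018) and VGLL1 (-0.15225 to 0.60083). With the 1 CPM filter 0 of the other CCN genes fell, since CCN4 was no longer tested, and in fits without 1 library 1 to 2 of them rose. The STRN call was lost without siYTHDC1 replicate 3 (edgeR adjusted p = 0.0678), and WWC2 was called in 4 alternatives. The replicate numbers did not pair the libraries (correlations of same-numbered deviations from -0.017 to 0.0055); with the replicate block 9227 genes were called in edgeR, and the 10 genes kept their calls. Ratios within a library kept their sign under a prior count of 2 and without any 1 library, and the TEAD shares, whose alternatives were added after seeing the data, kept theirs; without division by length the differences were 9.27 points for TEAD4 and -11 for TEAD2, in place of 15.3 and -14.7.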

Other observations

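Low counts were more often even than odd. Of 53893 values from 1 to 20 over all genes and libraries, 60.5% were even, against 51.0% of 14742 values from 50 to 200 and 50.1% of 24785 values from 1000 to 3000, and a count of 2 occurred 12087 times where a count of 1 occurred 7283 times. The sources used here do not say how reads were counted. ANKRD1, CCN4 and CCN6 had counts in or near the lowest of these ranges in some libraries; the part of this pattern in their values was not tested.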
